A study of Sus scrofa with 75 samples.

Results

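The 3 mature miRNAs described here are both arms of miR-142, a miRNA of blood-forming cells, and miR-223, a miRNA of myeloid cells, measured in peripheral blood mononuclear cells (PBMCs) of young pigs. They were chosen by name, as every mature miRNA of the small RNA count table called miR-142 or miR-223, with or without an arm. This gave miR-142-3p, miR-142-5p and miR-223, which are 3 of the 457 mature names in the table and 3 of the 317 with at least 1 read. All 3 passed the filter on low counts, a read in at least 17 of 39 libraries and a mean above 2 reads, as did 209 mature miRNAs in all, and each had 1 entry in the table.

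The pigs were of a synthetic Large White line, and each was bled at days 11, 20 and 56 of age. By treatment they were 8 pigs raised off soil (control) and 5 that met topsoil daily while suckling, from day 4 until weaning at day 20 (topsoil); after weaning neither group had soil. The comparisons ask whether the miRNA levels changed with age and whether early contact with topsoil altered that course. Treatment and age were those of the library descriptions, since the sample characteristics gave both the same treatment and the same age in only 6 of the 39 libraries.

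MiRNAs are short RNAs that lower the output of messenger RNAs through pairing with their seed, the bases near the 5′ end. The miR-142 gene is active in nearly all cells of the blood lineage, including lymphocytes and monocytes, and its hairpin gives a mature miRNA from each arm. In contrast, miR-223 is best known from neutrophils and monocytes, where it holds back myeloid activation; PBMCs hold lymphocytes and monocytes, since the density gradient removes most granulocytes.

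In the RefSeq annotation the miR-142 gene lies on chromosome 12 of the Sscrofa11.1 assembly, on the minus strand, at chr12:34609378-34609457. Sequences of the arms and hairpin were read from that assembly, and are shown because the arms, which come from the same hairpin, changed in their ratio with age. The miR-142-5p arm is at chr12:34609426-34609446 (21 bases) and the miR-142-3p arm at chr12:34609389-34609410 (22 bases). Capitals mark the seed (bases 2 to 8) in each arm, and the arms within the hairpin of 80 bases.
miR-142-5p: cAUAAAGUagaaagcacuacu
miR-142-3p: uGUAGUGUuuccuacuuuaugg
miR-142 hairpin: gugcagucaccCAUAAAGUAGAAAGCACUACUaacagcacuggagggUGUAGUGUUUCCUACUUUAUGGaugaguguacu
The seeds of the arms differ, and none of the other mature names among the 369 in the annotation shares either of them.

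The total per library, with 1 entry kept per mature name, was between 1634831 and 13494765, with a median of 10407253. The erythroid miR-486 took between 11.8% and 95.5% of it, which left between 389906 and 6343113 counts of other miRNAs. Levels are therefore given on 2 scales, as CPM (counts over the library size) with library sizes scaled by the upper quartile of the tested miRNAs (scaled CPM) and as CPM over all counts other than miR-486 (CPM without miR-486).

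Both miR-142 arms and miR-223 were detected in all 39 libraries. The 5p arm was by far the more abundant, with a median count of 16492 and counts between 900 and 88283 in a library, and it ranked 15 of 457 by its total. The 3p arm had a median count of 477 and was lowest, at 2 counts, in the day 11 library of control pig 1, and it ranked 76. For miR-223 the median was 344, the lowest count 57 and the highest 1443, and its rank was 83. Ligation and amplification capture different small RNAs to different degrees, so these ranks order counts, not molecules, and counts of PCR reads without molecular identifiers vary more than counting alone would give.

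The abundant arm, miR-142-5p, was higher at day 56 than at the earlier ages. In control pigs its scaled CPM at day 11 had a lowest value of 199.96, a median of 1066 and a highest value of 1900.3. At day 20 the lowest was 1156, the median 1672 and the highest 2314, and at day 56 the lowest was 1420 (1419.6), the median 3092 and the highest 6856. In 6 of 8 control pigs the day 56 level was above every control level of day 20, and in 7 of 8 above every control level of day 11, the exceptions being control pig 4, which was lowest at day 56, and, against day 20, control pig 5.

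Topsoil pigs 1 to 5 had 1064, 826, 1416, 1681 and 1239 scaled CPM of miR-142-5p at day 11. At day 20 the same pigs had 1471, 1678, 1426, 739 and 1009 scaled CPM, and at day 56 they had 2725, 3619, 3378, 3954 and 2715. The day 56 values lay above all 10 earlier values of the topsoil pigs, whereas the day 11 and day 20 values overlapped. Ordered by their medians, the groups ran from topsoil day 56 (3378) and control day 56 (3092) through control day 20 (1672), topsoil day 20 (1426) and topsoil day 11 (1239) to control day 11 (1066), and neighbours in that order overlapped in their values. Treatments of the same age overlapped too, although topsoil pigs 4 and 5 at day 20 were below every control pig of that age.

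Across all pigs, miR-142-5p rose from day 11 to day 56 by a log2 fold change of 1.55 (SE 0.24, 13 pigs, adjusted p = 1.13e-05, edgeR quasi-likelihood F test, Benjamini-Hochberg adjusted). The level was higher at day 56 in 13 of 13 pigs on both scales, and by p-value this miRNA was number 4 of 209. It was the only one of the 3 members called, in a comparison in which 25.4% of all tested miRNAs were called at a false discovery rate of 0.10 (36 higher and 17 lower). The median change of all 209 was itself 0.46, so relative to that median miR-142-5p rose by 1.09. With library sizes without miR-486 the change was 1.23 (SE 0.23, adjusted p = 0.000220 by the same test, the highest over the alternatives that keep all pigs and the labels of the descriptions, of which the lowest is 5.11e-08) against a median of 0.14, a difference of 1.09, and 20.1% of miRNAs were called, 16 higher and 26 lower. With the treatment and age of the sample characteristics in place of the descriptions, and no replicate block, the change was 0.39 and the adjusted p 0.974 in the same test.

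**Figure D1:**
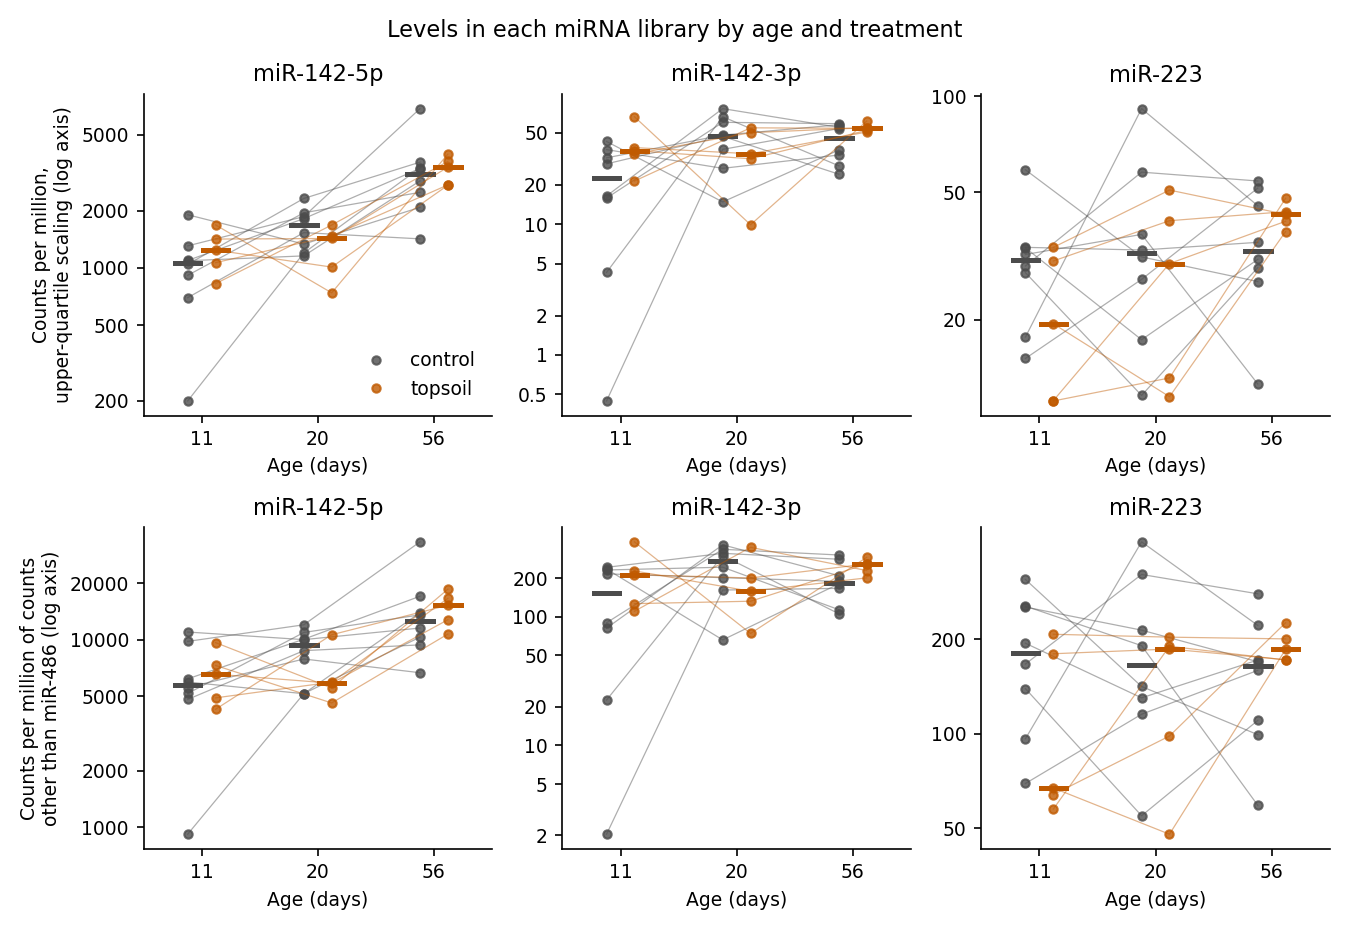
Levels of miR-142-5p, miR-142-3p and miR-223 in each library by age in days, in scaled CPM (top) and in CPM without miR-486 (bottom), both on log axes. Points are libraries, thin lines join the ages of a pig, and thick bars are medians of the 8 control (grey) or 5 topsoil (orange) pigs; miR-142-5p at day 56 lies above the day 11 level of the same pig in 13 of 13 pigs on both scales.

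Between day 20 and day 56 miR-142-5p rose in both treatments. In control pigs the log2 fold change was 0.94 (SE 0.28, 8 pigs, adjusted p = 0.0387, edgeR quasi-likelihood F test, Benjamini-Hochberg adjusted), and the level was higher at day 56 in 7 of 8 pigs; the exception was control pig 4. Here 1 of 3 members was called, beside 12.4% of all tested miRNAs (12 higher and 14 lower), and the median of all was -0.03. The call was lost without control pig 7, whose day 56 library held the highest level (log2 fold change 0.78, adjusted p = 0.156), and with library sizes without miR-486 (0.67 against a median of -0.28, adjusted p = 0.131, between 0.00882 and 0.140 over the alternatives that keep all pigs and the labels of the descriptions, and 0.987 with the sample characteristics), where 13.9% of miRNAs were called, 5 higher and 24 lower.

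In topsoil pigs the same interval gave a log2 fold change of 1.41 (SE 0.38, 5 pigs, adjusted p = 0.0251, edgeR quasi-likelihood F test, Benjamini-Hochberg adjusted), with a higher level at day 56 in 5 of 5 pigs. Again 1 of 3 members was called, beside 9.57% of all tested miRNAs (13 higher and 7 lower), and the median of all was 0.57, so the change relative to it was 0.83. With library sizes without miR-486 the change was 1.20 (SE 0.37) against a median of 0.28 and the adjusted p 0.0462 in the same test, between 0.00524 and 0.0753 over the alternatives that keep all pigs and the labels of the descriptions and 0.992 with the sample characteristics, with 6.22% called, 5 higher and 8 lower. Without topsoil pig 4 the adjusted p was 0.173 (log2 fold change 1.15), and without topsoil pig 5 it was 0.125 (1.39).

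The course of miR-142-5p from day 11 to day 20 was less uniform. In control pigs the log2 fold change was 0.77 (SE 0.28, adjusted p = 0.126, edgeR quasi-likelihood F test, Benjamini-Hochberg adjusted), with 7 of 8 pigs higher at day 20, and 0 of 3 members were called beside 5.26% of all tested miRNAs (11 higher and 0 lower, but 1 higher and 1 lower with library sizes without miR-486). Left out in turn, control pig 5, which had the highest day 11 level, gave 0.98 with an adjusted p of 0.0336, and limma with pig as a random effect gave 0.87 with an adjusted p of 0.0713 (highest over the alternatives that keep all pigs and the labels of the descriptions 0.554, and 0.934 with the sample characteristics). The same interval in topsoil pigs gave -0.01 (SE 0.37), with 3 of 5 pigs higher, and 0 of 3 members were called beside 0% of all tested miRNAs, of which 6 had an unadjusted p under 0.05 with edgeR, 5 were called by DESeq2 and 0 by limma.

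On the scale without miR-486 the picture of miR-142-5p was similar but the ages overlapped more. Control pigs had a lowest, median and highest CPM without miR-486 of 918, 5758 and 11006 at day 11, 5160 (5159.6), 9389 and 12029 at day 20, and 6677, 12576 and 33316 at day 56. Topsoil pigs 1 to 5 had 6559, 4259, 4901, 9665 and 7299 at day 11, and 5872, 10643, 5946, 5534 and 4605 at day 20. At day 56 the same pigs had 12797, 15292, 16628, 18623 and 10733, so that the topsoil libraries of day 56 were all above those of days 11 and 20, with the narrowest gap to topsoil pig 2 at day 20. In control pigs, 5 of 8 day 56 levels were above every day 11 level and 4 of 8 above every day 20 level.

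The other arm, miR-142-3p, was counted in far lower numbers than its partner. Control pigs had a lowest, median and highest of 0.444, 22.7 and 42.9 scaled CPM at day 11, 14.8, 47.5 and 76.6 at day 20, and 24.1, 45.4 and 58.8 at day 56. Topsoil pigs 1 to 5 had 34.5, 21.4, 36.5, 66.4 and 38.6 scaled CPM at day 11, 50.1, 54.6, 31.7, 9.902 and 34.6 at day 20, and 54.7, 54.1, 52.2, 61.5 and 50.7 at day 56. The topsoil pigs were widely spread at days 11 and 20 and close together at day 56, and every age overlapped with the others in both treatments. Ordered by medians, the groups were topsoil day 56 (54.1), control day 20 (47.5), control day 56 (45.4), topsoil day 11 (36.5), topsoil day 20 (34.6) and control day 11 (22.7), and neighbours in that order overlapped in their values.

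None of the age comparisons called miR-142-3p in the edgeR fit with upper-quartile scaling. Calls by limma, which used the same scaling, are given below. From day 11 to day 20 in control pigs its log2 fold change was 1.19 (SE 0.54, adjusted p = 0.254, edgeR quasi-likelihood F test, Benjamini-Hochberg adjusted), with 6 of 8 pigs higher. The size was smaller without the library with 2 counts: with the day 11 library of control pig 1 alone left out, an alternative chosen after its count was seen, the value was 0.88 and the adjusted p 0.384 (between 0.0782 and 0.482 over the alternatives that keep all pigs and the labels of the descriptions, and 0.934 with the sample characteristics). The same interval in topsoil pigs gave -0.0163 (SE 0.68), with 2 of 5 pigs higher in scaled CPM. From day 20 to day 56 the change was -0.19 (SE 0.50) in control pigs and 0.45 (SE 0.68) in topsoil pigs (between 0.0719 and 0.61 with a pig left out). With total counts it was 0.62 in control pigs and 2.399 in topsoil pigs (called, as were 106 of 209 miRNAs), against medians of 0.89 and 2.65. Over the whole course, from day 11 to day 56 in all pigs, it was 0.71 (SE 0.42, adjusted p = 0.257 in the same test), which is 0.25 above the median of all tested miRNAs. limma with pig as a random effect called it from day 11 to day 20 in control pigs (adjusted p = 0.0782) and from day 11 to day 56 (adjusted p = 0.0786, between 0.00164 and 0.611 over the alternatives that keep all pigs and the labels of the descriptions, and 0.974 with the sample characteristics).

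On the scale without miR-486, miR-142-3p in control pigs had median CPM without miR-486 of 153 at day 11, 271 at day 20 and 184 at day 56, with lowest and highest values of 2.04 and 242, 66.1 and 362, and 106 and 302. Topsoil pigs had medians of 213, 158 and 257 at the same ages, between 74.2 and 382 over all topsoil libraries. The groups overlapped at every age, and in control pigs 6 of 8 were lower at day 56 than at day 20, whereas 4 of 5 topsoil pigs were higher.

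The share of the 3p arm among the counts of both arms was taken within each library, so that neither the scaling nor miR-486 enters it. In control pigs the share had a lowest, median and highest of 0.222%, 1.74% and 3.99% at day 11, 1.26%, 3.00% and 3.30% at day 20, and 0.833%, 1.55% and 1.74% at day 56. Topsoil pigs 1 to 5 had shares of 3.14%, 2.52%, 2.51%, 3.801% and 3.02% at day 11. At day 20 their shares were 3.30%, 3.15%, 2.17%, 1.32% and 3.31%, and at day 56 they were 1.97%, 1.47%, 1.52%, 1.53% and 1.83%. Exact Clopper-Pearson 95% intervals, which cover counting error only, averaged at most 0.559 percentage points to a side before day 56 and 0.144 at day 56.

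The share was thus low and even at day 56 and higher at day 20, where 10 of 13 libraries lay above the highest share of day 56 (1.97%). At day 11 it was above that value in 8 of 13 libraries, and control pigs 1 and 6 were far below all others of that age. Control pig 1 had 2 of 902 counts on the 3p arm (0.222%, 95% interval 0.0269% to 0.799%) and control pig 6 had 25 of 5361 (0.4663%, 0.302% to 0.688%).

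As a log2 ratio of 3p to 5p, the mean over the 13 pigs was -5.67 at day 11, -5.25 at day 20 and -6.06 at day 56. The fall by 0.80 from day 20 to day 56 (SD of the change 0.54, in 11 of 13 pigs) passed the test (p = 0.000977, exact two-sided sign-flip permutation test; adjusted p = 0.0156 by Benjamini-Hochberg over 16 ratio tests, where 0.000244 is the smallest p that 13 pigs allow). Leaving out each pig in turn gave adjusted p values between 0.00781 and 0.0312 in the same exact test. Over this interval the fitted log2 fold change of miR-142-5p was 0.94 in control and 1.41 in topsoil pigs. That of miR-142-3p was -0.19 and 0.45, so the fall of the ratio is not separate from the rise of the 5p arm. The change from day 11 to day 20 was 0.42 (SD 1.47, 9 of 13 pigs up) and that from day 11 to day 56 was -0.39 (SD 1.18, 10 of 13 pigs down), and neither passed (adjusted p = 0.467 and 0.412, exact two-sided sign-flip permutation tests).

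**Figure D2:**
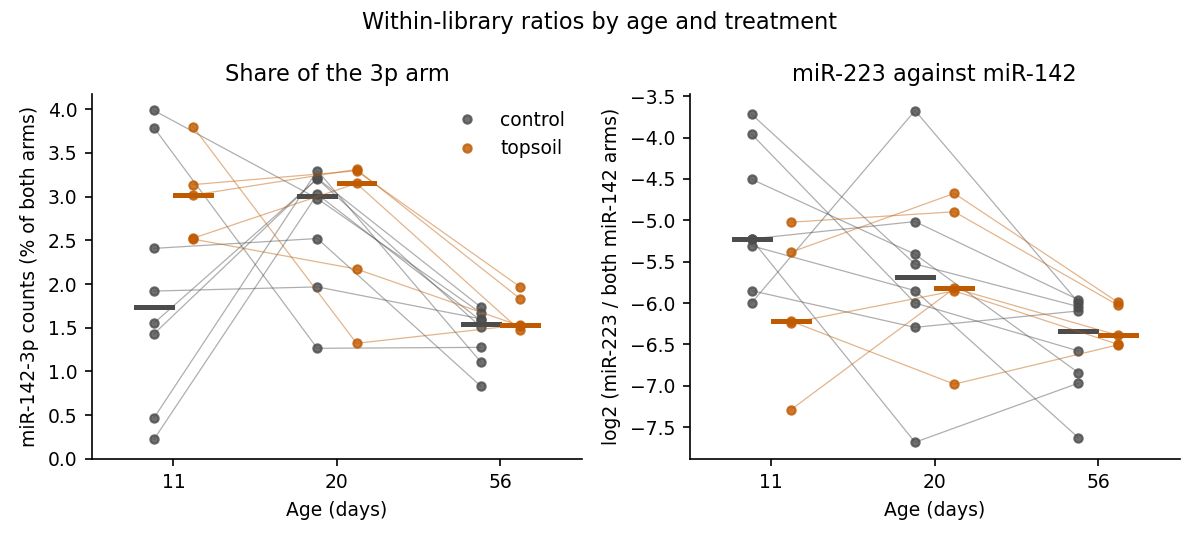
Share of miR-142-3p in the counts of both miR-142 arms in percent (left) and the log2 ratio of miR-223 to both arms (right) in each library, by age in days. Points are libraries, thin lines join the ages of a pig and thick bars are medians of the 8 control (grey) or 5 topsoil (orange) pigs; at day 56 the shares lie between 0.833% and 1.97%.

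The myeloid miR-223 was spread widely between pigs and showed no call at any age with upper-quartile scaling. Control pigs had a lowest, median and highest of 15.1, 30.7 and 58.9 scaled CPM at day 11, 11.6, 32.2 and 91.5 at day 20, and 12.6, 32.9 and 54.3 at day 56. Topsoil pigs 1 to 5 had 33.7, 11.15, 19.4, 11.12 and 30.5 scaled CPM at day 11, 50.9, 29.9, 11.5, 13.1 and 40.8 at day 20, and 42.7, 40.6, 37.7, 47.9 and 43.5 at day 56. All 5 topsoil pigs were higher at day 56 than any topsoil pig at day 11, and at day 20 they fell on both sides of that gap. Control pigs overlapped at every age, with control pig 3 highest at day 20 and control pig 4 lowest at day 56. The medians of the groups ran from 42.7 (topsoil day 56) through 32.9, 32.2 and 30.7 (control days 56, 20 and 11) and 29.9 (topsoil day 20) to 19.4 (topsoil day 11), and neighbours in that order overlapped in their values.

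From day 11 to day 56 in all pigs miR-223 had a log2 fold change of 0.60 (SE 0.33, adjusted p = 0.211, edgeR quasi-likelihood F test, Benjamini-Hochberg adjusted), with 10 of 13 pigs higher, which is 0.14 above the median of all tested miRNAs. From day 11 to day 20 the values were 0.09 (SE 0.39) in control pigs and 0.48 (SE 0.50) in topsoil pigs, and from day 20 to day 56 they were -0.05 (SE 0.41) and 0.68 (SE 0.51). The sign of the first was not stable (-0.11 with TMM and with library sizes without miR-486, -0.20 with DESeq2). With total counts the last 2 were 1.04 and 2.82, against medians of 0.89 and 2.65. Of these the topsoil value was called, as were 106 of 209 miRNAs in all. With library sizes without miR-486 the change from day 11 to day 56 was 0.27 (SE 0.33), and 6 of 13 pigs, among them 3 of 5 topsoil pigs, were higher at day 56 in CPM without miR-486. With total counts, where the median of all tested miRNAs moved to 2.38, all 3 members were called from day 11 to day 56, at 3.45 for miR-142-5p, 2.51 for miR-142-3p and 2.51 for miR-223, of which 1.07, 0.13 and 0.13 lay above that median. In the same fit 162 of 209 miRNAs were called, 161 of them higher.

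On that scale without miR-486, topsoil pigs 1 to 5 had 207, 57.5, 67.1, 64.0 and 179.8 CPM without miR-486 of miR-223 at day 11, 203, 190 (189.95), 47.8, 98.3 and 186 at day 20, and 200.5, 172, 186, 226 and 172 at day 56. Control pigs had a lowest, median and highest of 69.4, 180.5 and 310.1 at day 11, 54.8, 166 and 409 at day 20, and 59.1, 164 and 279 at day 56. At day 11 the topsoil pigs 2, 3 and 4 were below every control pig, and topsoil pigs 1 and 5 were within the control range. By day 56 the topsoil values were inside the control range in 5 of 5 pigs.

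**Figure D3:**
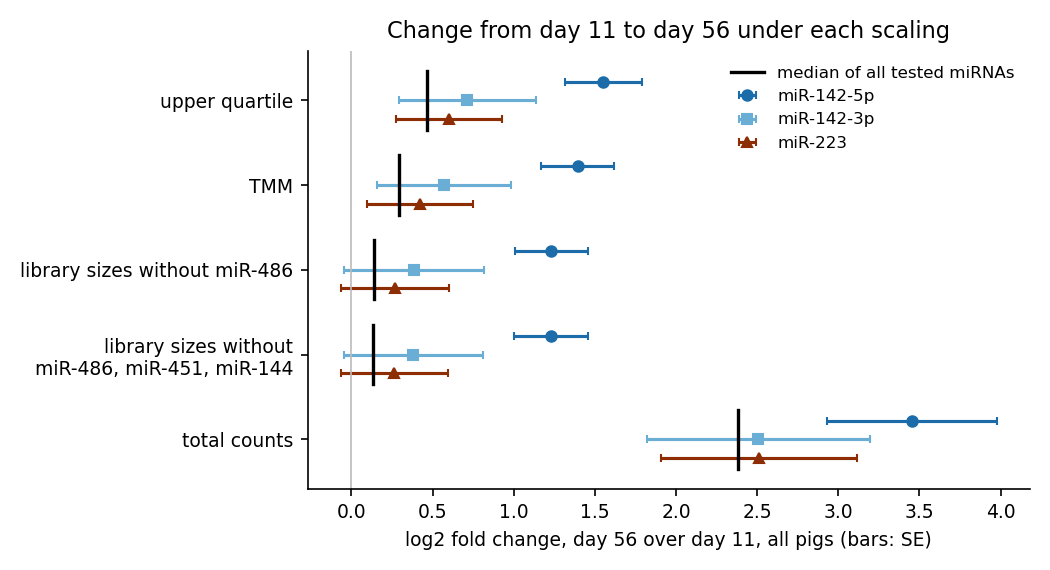
Log2 fold change from day 11 to day 56 in all pigs for the 3 members under 5 scalings; points are estimates of edgeR's quasi-likelihood fit, bars are SE and black lines mark the median of all 209 tested miRNAs. miR-142-5p lies above that median under each of these scalings, by 1.09 with the upper quartile and 1.09 with library sizes without miR-486.

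Set against miR-142 within the same library, miR-223 was lower at day 56. The 3p arm held at most 3.99% of both arms, so this ratio contains the rise of miR-142-5p and is not separate from it. From day 20 to day 56 the fitted log2 fold change of miR-223 was -0.05 in control and 0.68 in topsoil pigs. That of miR-142-5p was 0.94 and 1.41. For every 100 counts of both miR-142 arms, control pigs had a median of 2.65 counts of miR-223 at day 11 (lowest 1.56, highest 7.54), 1.95 at day 20 (0.484 to 7.82) and 1.25 at day 56 (0.505 to 1.61). Topsoil pigs 1 to 5 had 3.06, 1.32, 1.34, 0.637 and 2.39 at day 11, 3.34, 1.73, 0.787, 1.75 and 3.91 at day 20, and 1.54, 1.11, 1.10, 1.19 and 1.57 at day 56. The ages overlapped in both treatments, and the values of day 56 were the least spread.

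The log2 ratio had a mean over 13 pigs of -5.38 at day 11, -5.67 at day 20 and -6.42 at day 56. It fell by 0.76 from day 20 to day 56 (SD of the change 0.87, in 10 of 13 pigs, p = 0.0105, adjusted p = 0.0560, exact two-sided sign-flip permutation test with Benjamini-Hochberg adjustment) and fell by 1.04 from day 11 to day 56 (SD 1.11, in 11 of 13 pigs, p = 0.00684, adjusted p = 0.0547, same exact test). The first call was lost without control pig 4 (adjusted p = 0.112, exact permutation test), 7 (0.112) or 8 (0.107) or topsoil pig 5 (0.109), and the second without control pig 4 (0.109), 7 (0.109) or 8 (0.102). The mean change from day 11 to day 20 was -0.29 (SD 1.37, 7 of 13 pigs down, adjusted p = 0.524, exact permutation test).

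Between treatments none of the 3 members was called at any age. At day 11 topsoil minus control was 0.30 (SE 0.39) for miR-142-5p, 0.73 (SE 0.65) for miR-142-3p and -0.51 (SE 0.46) for miR-223, as log2 fold changes of a fit of that day's 13 libraries, beside 0% of all tested miRNAs called (7 with an unadjusted p under 0.05 in edgeR and 1 called by DESeq2). At day 20 it was -0.51 (SE 0.27), -0.46 (SE 0.48) and -0.32 (SE 0.52) for the same members, and the median of all tested miRNAs was -0.29, with 0.957% of them called (28 with an unadjusted p under 0.05 in edgeR and 9 called by DESeq2). At day 56 it was -0.02 (SE 0.30), 0.34 (SE 0.28) and 0.28 (SE 0.33), beside 0% called (5 with an unadjusted p under 0.05 in edgeR and 0 called by DESeq2). The smallest adjusted p of the 9 values was 0.435, for miR-142-5p at day 20, in the edgeR quasi-likelihood F test, Benjamini-Hochberg adjusted.

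The treatment by age interaction, which asks whether the course with age differed, called 0 of 3 members and 0% of the 209 miRNAs (22 with an unadjusted p under 0.05 in edgeR, 0 called by DESeq2 and 2 by limma). Its adjusted p was 0.740 for miR-142-5p, 0.812 for miR-142-3p and 0.666 for miR-223 in the edgeR quasi-likelihood F test, Benjamini-Hochberg adjusted. Changes past the threshold in 1 treatment alone are therefore not shown to differ between treatments.

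The within-library ratios were also compared between treatments. At day 11 the log2 ratio of miR-223 to both miR-142 arms was -4.97 on average in control and -6.03 in topsoil pigs, a difference of -1.06 (pooled SD 0.85, p = 0.0513, adjusted p = 0.164, exact two-sided permutation test of 8 against 5 pigs, in which 0.000777 is the smallest p possible). The change of that ratio from day 11 to day 20 was -0.71 in control and 0.39 in topsoil pigs (difference 1.09, p = 0.171, adjusted p = 0.342, same exact test), and that from day 11 to day 56 was -1.54 in control and -0.25 in topsoil pigs (difference 1.29, p = 0.0443, adjusted p = 0.164, same exact test). Without control pig 3 these differences were -1.20, 1.53 and 1.51 and passed (adjusted p = 0.0774, 0.0687 and 0.0687, exact permutation tests), and without topsoil pig 1 the day 11 difference was -1.31 and passed as well (adjusted p = 0.0889, exact permutation test). At days 20 and 56 the ratio differed by 0.04 and 0.23 between treatments, within the spread between pigs. For the ratio of 3p to 5p the differences were 1.04 at day 11 (pooled SD 1.12), -0.04 at day 20 and 0.27 at day 56, and none passed (adjusted p = 0.342, 0.958 and 0.342, exact permutation tests).

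Erythroid, lymphocyte, platelet and other myeloid miRNAs were measured in the same libraries, and in bulk PBMC libraries fewer cells of a type and less RNA per cell cannot be told apart. All 3 of 3 erythroid markers, miR-486, miR-451 and miR-144, fell from day 11 to day 56, at log2 fold changes of -3.34 (SE 0.54), -1.62 (SE 0.33) and -2.51 (SE 0.64), with adjusted p of 2.41e-05, 0.00046 and 0.0046 (edgeR quasi-likelihood F test, Benjamini-Hochberg adjusted), beside 25.4% of all tested miRNAs called, 17 of them lower. With total counts, against a median of 2.38 for all tested miRNAs, miR-451 had the opposite sign (0.36) and miR-144 was no longer called (-0.59), and only miR-486 kept its call (-1.21). From day 20 to day 56, 3 of 3 fell in control pigs (-2.07 for miR-486, -2.59 for miR-451 and -3.83 for miR-144) and 1 of 3 in topsoil pigs, miR-486 (-4.05), where miR-451 (-1.35) and miR-144 (-1.60) were lower as well but did not pass, beside 12.4% of all tested miRNAs called in control pigs (14 lower) and 9.57% in topsoil pigs (7 lower). With total counts 7 miRNAs were called higher and 0 lower in control pigs, so none of the 3 falls kept its call there. In topsoil pigs 105 miRNAs were then called higher and 1 lower. The summed share of the 3 erythroid markers in all counts in control pigs had a lowest, median and highest of 69.2%, 91.4% and 95.5% at day 11, 65.5%, 77.9% and 95.1% at day 20 and 18.5%, 42.4% and 75.3% at day 56. For the topsoil pigs, by age, it was 76.2%, 88.9% and 95.3%, then 74.1%, 89.2% and 95.5%, then 11.8%, 38.0% and 48.3%. Nearly all of it was miR-486, the most abundant miRNA of the list, and the part of these erythroid shares in the changes of miR-142-5p, the 3p share and miR-223 was not tested.

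Of the lymphocyte list, miR-150 rose and miR-342 did not pass from day 11 to day 56 (log2 fold changes 0.87, SE 0.21, and -0.20, SE 0.29). Of all tested miRNAs, 25.4% were called (36 higher and 17 lower), and their median was 0.46. With total counts miR-342 was 1.85 and called, as were 162 of 209 miRNAs in all, and the median was 2.38. With library sizes without miR-486, miR-150 was 0.54 against a median of 0.14 and was still called. miR-150, the more abundant of the list and a miRNA of mature lymphocytes, also passed from day 20 to day 56 in both treatments, at 1.40 (SE 0.27) in control and 1.31 (SE 0.35) in topsoil pigs. In neither did miR-342 pass, at 0.43 (SE 0.38) in control and -0.67 (SE 0.47) in topsoil pigs. Of all tested miRNAs, 12.4% were called in control and 9.57% in topsoil pigs, with medians of -0.03 and 0.57. Together miR-150 and miR-342 held a lowest, median and highest of 0.716%, 1.77% and 3.38% of counts other than miR-486 in control pigs at day 11, 0.581%, 1.00% and 1.52% at day 20 and 1.36%, 2.14% and 2.38% at day 56. The topsoil medians by age were 1.57%, 1.07% and 1.69%, between 0.742% and 3.43% over all topsoil libraries. Their part in the rise of miR-142-5p was not tested.

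Of the other myeloid miRNAs, listed as miR-23a, miR-27a and miR-24, 4 of 5 names were tested and miR-24-2-5p had 0 counts in all libraries. Between days 11 and 56, 2 of the 4 rose, miR-27a (0.87, SE 0.20, but 0.55 with library sizes without miR-486) and miR-23a (0.71, SE 0.24), beside 25.4% of all tested miRNAs called (36 higher and 17 lower) and a median of 0.46, and miR-24-3p (0.68, SE 0.29) and miR-24-1-5p (0.29, SE 0.86, but -0.0308 with library sizes without miR-486) did not pass. They did pass with total counts (2.70 and 2.42), as did 162 of 209 miRNAs in all, and the median was 2.38. In addition miR-24-3p passed with limma (0.74), without the RNA quality index (0.68), without the replicate block (0.65), and without control pig 3 (0.72), control pig 4 (0.77) or topsoil pig 2 (0.82). With library sizes without miR-486, miR-23a was no longer called (0.39, adjusted p = 0.304, edgeR quasi-likelihood F test, Benjamini-Hochberg adjusted, between 5.25e-05 and 0.307 over the alternatives that keep all pigs and the labels of the descriptions, and 0.974 with the sample characteristics), nor was it with no filter on low counts (0.61). From day 20 to day 56, 1 of the 4 was called in control pigs, miR-23a (0.97, SE 0.30), beside 12.4% of all tested miRNAs and a median of -0.03. In topsoil pigs 1 of the 4 was called as well, miR-27a (1.06, SE 0.33), beside 9.57% and a median of 0.57. miR-27a was the most abundant, and the summed share of the list in counts other than miR-486 in control pigs had a lowest, median and highest of 0.0485%, 0.0990% and 0.144% at day 11, 0.0472%, 0.0947% and 0.178% at day 20 and 0.0863%, 0.129% and 0.189% at day 56. Topsoil pigs had medians of 0.0924%, 0.0943% and 0.146%, and the part of these miRNAs in the values of miR-223 was not tested.

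The platelet and endothelial miR-126 was close to absent, and 0 of its 2 arms was called from day 11 to day 56 (0.91, SE 1.27, for miR-126-3p and 1.15, SE 0.85, for miR-126-5p), beside 25.4% of all tested miRNAs called. With total counts both arms were called (3.17 and 3.00), as were 162 of 209 miRNAs in all, and the median was 2.38. miR-126-5p had 3040 counts over all libraries with a read in 32 of them, and miR-126-3p had 301 counts with a read in 25. Their sum was at most 0.0224% of counts other than miR-486 in any library, and its median in topsoil pigs at day 20 was 0.

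Among 205 other miRNAs, those most like each member were found by Spearman's rho over the 39 libraries in log2 CPM without miR-486, as a description in which points share pigs, ages and depth. For miR-142-5p they were miR-7134-3p (0.789), miR-21-5p (0.728) and miR-151-5p (0.696). For miR-142-3p they were miR-374a-5p (0.742), miR-186-5p (0.739) and miR-15a (0.727), and for miR-223 they were miR-184 (0.521), miR-21-3p (0.496) and miR-27a (0.447). After the mean of each treatment and day was subtracted, the values for miR-142-5p were 0.663, 0.419 and 0.676, those for miR-142-3p 0.718, 0.619 and 0.660, and those for miR-223 0.414, 0.516 and 0.479. The value of miR-21-5p thus dropped most, and miR-184 had only 150 counts over all libraries.

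Between the members themselves, rho was 0.662 for the arms of miR-142 and 0.837 after the means of treatment and day were subtracted. Between miR-223 and the arms it was 0.248 for 3p and 0.252 for 5p, and 0.278 for either after subtraction. Libraries of 1 age and treatment with more of 1 miR-142 arm thus tended to have more of the other, whereas miR-223 varied largely apart from both.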

How the data were processed

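The authors trimmed small RNA reads, aligned them to Sscrofa11.1 and quantified them with miRDeep2, and deposited raw counts per mature miRNA and precursor, without normalization. The mRNA counts were not used here. The names of the columns matched the library descriptions. The members and marker lists were chosen with earlier results of these data known.

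Counts of 1 entry per mature name (the largest) were fitted by edgeR 4.0.16 (R 4.3.3): upper-quartile (75%) scaling, pig as a fixed block, age, RNA quality index and treatment by age terms, quasi-likelihood F tests and Benjamini-Hochberg adjustment over 209 miRNAs, called at a false discovery rate of 0.10. Treatments were compared within each day without the block, with the RNA quality index as the only covariate. The 3 ages of a pig come from 1 animal, so the replicate block is a true pairing; deviations from group means correlated at 0.0554 over 39 pairs of libraries of 1 pig and at -0.00298 over 228 pairs from unlike pigs, with the pig read from the animal tag. The study fitted pig as a random effect in SAS. Its model also held sow parity and litter size, and its list of terms names sex. These were not fitted here, so values between treatments are not adjusted for them. SE is the log2 fold change divided by the square root of F.

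Ratios within a library, with 0.5 counts added, were tested by exact permutation over pigs in Python 3.11.15, with intervals from scipy 1.17.1. Named miRNAs are the members, for each the 3 with the highest Spearman rho, and every tested marker. Erythroid (miR-486, miR-451, miR-144), lymphocyte (miR-150, miR-342), platelet and endothelial (miR-126) and other myeloid (miR-23a, miR-27a, miR-24) lists describe levels only. Sequences are from RefSeq, Sscrofa11.1. The code was tested on simulated data. Alternatives were TMM, total counts, library sizes without miR-486 or without the 3 erythroid miRNAs, DESeq2 1.42.0, limma 3.58.1 (random pig effect), other filters, every entry, no RNA quality index, no replicate block, the sample characteristics, 5 counts added to ratios, the sum of all entries for ratios, and each pig left out. Leaving out 1 library was added after the data were seen.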

Additional observations from a re-analysis of the deposited data

Results flagged for a closer look

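In 48 groups of 8 or 5 libraries (levels on both scales and both ratios), 4 values lay far from the others of their group by the gap to the next value over the range; chance does so in about 1 of 20 groups. For miR-142-5p, control pig 7 at day 56 had 33316 CPM without miR-486, where the next control pig had 17078, and 6856 scaled CPM, where the next had 3588. This library had the smallest total of the 39 with miR-486 included, but not without it. Topsoil pig 2 at day 20 had 10643 CPM without miR-486 of miR-142-5p, and the next topsoil pig had 5946. For miR-223, control pig 6 at day 11 had 58.9 scaled CPM, and the next control pig had 33.7.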

How the results depend on the processing

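Of the member results with a pig left out, 326 of 351 kept their direction and their side of the threshold, and of those under other alternatives 281 of 333 did. For the ratios it was 187 of 208 with a pig left out and 32 of 32 with 5 counts added or with the sum of all entries. Where values below differ, the cause was not tested.

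With TMM normalization the calls numbered 2 from day 11 to day 20 in control pigs and 1 between treatments at day 20, and miR-223 from day 11 to day 20 in control pigs was -0.11. With total counts there were 0 calls from day 11 to day 20 and 7 from day 20 to day 56 in control pigs, 106 from day 20 to day 56 in topsoil pigs, 162 from day 11 to day 56 and 1 between treatments at day 20. From day 20 to day 56 in control pigs miR-142-3p was then 0.62 and miR-223 1.04, and from day 11 to day 20 in topsoil pigs miR-142-3p was 0.14 and miR-142-5p 0.0601. Topsoil pigs gained calls from day 20 to day 56 for miR-142-3p (2.399) and miR-223 (2.82), and all pigs did for both from day 11 to day 56 (2.51 and 2.51). Between treatments miR-142-5p was -0.0834 at day 11 and 0.14 at day 56, and from day 11 to day 56 miR-451 was 0.36. That interval also gained calls for miR-342 (1.85), miR-24-3p (2.70), miR-24-1-5p (2.42), miR-126-3p (3.17) and miR-126-5p (3.00) and lost that of miR-144 (-0.59).

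With library sizes without miR-486 the calls numbered 2 from day 11 to day 20 in control pigs, 13 from day 20 to day 56 in topsoil pigs and 1 between treatments at day 20. miR-223 from day 11 to day 20 in control pigs was -0.11, miR-142-5p from day 20 to day 56 in control pigs lost its call (0.67), miR-142-5p between treatments at day 56 was 0.0086 and from day 11 to day 56 miR-24-1-5p was -0.0308, miR-23a lost its call (0.39), and miR-27a (0.55) and miR-150 (0.54) were smaller but called. Without miR-451 and miR-144 as well, the calls were again 2, 13 and 1 and these values were -0.10, 0.66, 0.0088, -0.0348, 0.39, 0.55 and 0.54.

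With DESeq2 the calls numbered 5 from day 11 to day 20 in control pigs, 5 in topsoil pigs, 36 from day 20 to day 56 in topsoil pigs, and 1 and 9 between treatments at days 11 and 20. miR-223 from day 11 to day 20 in control pigs was -0.20, and in topsoil pigs miR-142-3p was 0.0118 and miR-142-5p 0.0321. With no filter on low counts the calls were 1 from day 11 to day 20 in control pigs and 10 from day 20 to day 56 in topsoil pigs, and miR-223 was -0.0743 in the former comparison. With a mean of at least 10 reads there was 1 call from day 11 to day 20 in control pigs and 1 between treatments at day 20, miR-223 was -0.27 from day 11 to day 20 and 0.14 from day 20 to day 56 in control pigs, and miR-142-5p between treatments at day 56 was 0.18. With every entry of the table the calls were 2, 12 and 1 (day 11 to day 20 in control pigs, day 20 to day 56 in topsoil pigs, treatments at day 20). miR-223 was then -0.0598 and 0.11 in the control intervals, miR-142-3p 0.0491 and miR-142-5p 0.0322 in topsoil pigs (day 11 to day 20), and miR-142-5p 0.0733 between treatments at day 56.

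With limma and pig as a random effect, run for the ages and the interaction only, the calls numbered 30 from day 11 to day 20 in control pigs, 33 from day 20 to day 56 in topsoil pigs and 2 for the interaction. Calls were gained from day 11 to day 20 in control pigs for miR-142-3p (1.48) and miR-142-5p (0.87) and from day 11 to day 56 for miR-142-3p (0.94) and miR-24-3p (0.74), and miR-223 from day 20 to day 56 in control pigs was 0.0625. Without the RNA quality index there was 1 call between treatments at day 20, miR-223 from day 20 to day 56 in control pigs was 0.0207, miR-142-5p was 0.0233 in topsoil pigs from day 11 to day 20 and 0.0144 between treatments at day 56, and from day 11 to day 56 miR-126-3p was -0.13 and miR-24-3p (0.68) gained its call.

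Without the replicate block, which pairs the ages of a pig, miR-142-5p was 1.58 from day 11 to day 56, 1.05 from day 20 to day 56 in control pigs and 1.54 in topsoil pigs, with its calls kept, and miR-24-3p gained a call from day 11 to day 56 (0.65).

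With the treatment and age of the sample characteristics and no block, calls were 0 in all comparisons. In control pigs miR-142-3p was -0.14 from day 11 to day 20 and 0.0808 from day 20 to day 56, and miR-142-5p -0.45 from day 20 to day 56. For topsoil pigs miR-142-3p was 0.81 and miR-142-5p 0.96 from day 11 to day 20, and miR-142-5p 0.13 and miR-223 -0.36 from day 20 to day 56. From day 11 to day 56 miR-142-5p was 0.39, miR-223 -0.21, miR-126-3p -1.05, miR-126-5p -0.80, miR-144 0.17, miR-150 -0.0762, miR-23a -0.20, miR-24-3p -0.0277 and miR-451 0.31. Between treatments miR-142-3p was -0.24 at day 11 and 0.68 at day 20, miR-142-5p -0.12, 0.60 and 1.10 at days 11, 20 and 56, and miR-223 0.56 at day 11.

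With the day 11 library of control pig 1 alone left out, chosen after seeing the data, there were 2 calls from day 11 to day 20 in control pigs and miR-223 was -0.0459.

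With each pig left out in turn, calls from day 11 to day 20 in control pigs were between 0 and 18, from day 20 to day 56 between 13 and 28 in control and between 5 and 30 in topsoil pigs, and between treatments at day 20 between 0 and 6. In control pigs miR-142-5p was between 0.61 and 0.98 from day 11 to day 20 and between 0.78 and 1.08 from day 20 to day 56, miR-223 between -0.22 and 0.29 and then between -0.23 and 0.14, and miR-142-3p between -0.32 and 0.0262 from day 20 to day 56. In topsoil pigs miR-142-3p was between -0.36 and 0.60, miR-142-5p between -0.21 and 0.30 and miR-223 between 0.26 and 0.67 from day 11 to day 20. From day 20 to day 56 in topsoil pigs miR-142-5p was between 1.15 and 1.59, miR-142-3p between 0.0719 and 0.61 and miR-223 between 0.36 and 0.88. Between treatments at day 11 miR-142-3p was between 0.48 and 0.96, miR-142-5p between 0.10 and 0.48 and miR-223 between -0.82 and -0.28. At day 20 miR-142-3p was between -0.71 and -0.12, miR-142-5p between -0.66 and -0.33 and miR-223 between -0.61 and 0.0245. At day 56 miR-142-3p was between 0.22 and 0.44, miR-142-5p between -0.13 and 0.26 and miR-223 between 0.17 and 0.40. From day 11 to day 56 miR-24-1-5p was between -0.33 and 0.60, miR-342 between -0.35 and 0.0437, miR-126-3p between 0.48 and 1.42 and miR-126-5p between 0.76 and 1.54.

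The ratio of 3p to 5p between treatments at day 20 was between -0.18 and 0.20 with a pig left out. At day 11 this difference was between 0.69 and 1.25, and at day 56 between 0.16 and 0.31. In all pigs the change of the ratio of 3p to 5p was between 0.16 and 0.58 from day 11 to day 20 and between -0.63 and -0.29 from day 11 to day 56. The ratio of miR-223 to miR-142 was between -0.88 and -0.63 from day 20 to day 56, between -1.20 and -0.91 from day 11 to day 56, and between treatments between -1.31 and -0.74 at day 11 and between -0.25 and 0.37 at day 20. Its change differed between treatments by between 0.82 and 1.53 to day 20 and between 1.00 and 1.51 to day 56.

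The lowest count in a library was 2 for the 3p arm, 57 for miR-223 and 900 for the 5p arm, and 8 and 5 pigs limit every comparison between treatments.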
